A study of Mus musculus with 45 samples.

Results

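Spopfm1, Spopfm2 and Tdpoz1 to Tdpoz5 are 7 genes of the Spopfm and Tdpoz family, which lie in a stretch of 615 kb on mouse chromosome 3. They were picked by name out of the 55401 genes in the gene tables, and in the Dppa4 experiment by the Ensembl identifiers of these names. The choice was made with their values after 7 d and 15 d of EHMT2 loss and in GFP-positive cells already known, so those values are descriptions of the genes and not support for their selection. RNA-seq covered 45 libraries in 15 groups of 3.

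All cells were mouse embryonic stem cells (mESCs) grown in serum and LIF on fibroblast feeders. In EHMT2-dTAG cells, made from KH2 mESCs and labelled with the strain BL6/129, a degron tag on the methyltransferase EHMT2 lets the compound dTAG-13 (called dTAG from here on) remove the protein, and controls carry the same tag and received DMSO. The clones E2-17, E2-20 and E2-K71 were sampled after 24 h and 7 d of DMSO or dTAG, and again after 15 d of DMSO, 15 d of dTAG, or 7 d of dTAG followed by 8 d of washout in DMSO (Recovery). EHMT2-dTAG cells with an added GFP reporter driven by the endogenous retrovirus MERVL were treated for 72 h and separated by flow cytometry. The GFP-negative fraction is called mESC in the study and the GFP-positive fraction 2CLC, for its 2-cell-like state, and their libraries were made by a low-input protocol. In the Dppa4 experiment, wild-type J1 mESCs (WT) and mESCs in which CRISPR/Cas9 had removed Dppa4 (KO) were kept for 48 h in DMSO or in UNC0638, which inhibits the enzymes EHMT1 and EHMT2. The labels speak of 3 independent clones for this experiment and number the libraries 1 to 3, and they do not say which clone carries which number.

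The family takes its name from SPOP, an adaptor protein that joins substrates to the ubiquitin ligase built on the scaffold CUL3. SPOP binds its substrates through a MATH domain and binds CUL3 through a BTB domain (also called a POZ domain, hence Tdpoz), and the mouse Spopfm and Tdpoz genes encode proteins of this MATH-BTB type. Tdpoz transcripts are known from early mouse embryos, and EHMT2 places the repressive mark H3K9me2 on chromatin.

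For the time course, the washout and the sorted cells, the values used here are the authors' mean of normalized read counts over 3 libraries, so no spread, n or test can be given for them. A gene is called past 2-fold where log2 of one mean plus 1 over the other mean plus 1 is at least 1 in size, and the share of all genes with a mean of at least 1 in either group that pass the same limit is given as background. These tables were normalized separately, so a level in one was not set against a level in another. The gene means summed to 14.4 to 14.9 (time course), 20.5 to 21.9 (washout) and 8.71 to 11.5 (sorted cells), in units of 1000000 normalized reads, and a mean near 0.3 corresponds to a single read in 1 of the 3 libraries. The Dppa4 experiment holds each library, with 8399885 to 12710949 gene reads. As a check of the labels, Dppa4 had 602 to 1053 reads in each of the 6 WT libraries and 0 in each of the 6 KO libraries. The 10 pluripotency markers checked, among them Pou5f1 and Nanog, summed to 54157 to 78726 normalized reads in these libraries and 10 feeder fibroblast markers to 3700 to 6728. The degrader acts on protein, and the mean of the Ehmt2 transcript was 616 normalized reads with DMSO and 609 with dTAG at 24 h.

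On mm10, in order along the chromosome, Tdpoz2 lies at chr3:93651542-93652686 (minus strand), Tdpoz1 at chr3:93669333-93676310 (minus), Tdpoz4 at chr3:93796398-93797510 (plus), Tdpoz3 at chr3:93826020-93827117 (plus), Tdpoz5 at chr3:93960292-93961314 (minus), Spopfm2 at chr3:94174412-94178193 (minus) and Spopfm1 at chr3:94264036-94266784 (plus). GENCODE gives all 7 as protein coding, whereas the RefSeq table lists Spopfm1 as a pseudogene. In all 7 the coding part, 1020 to 1110 bases long, sits in 1 exon, while the coding part of Spop, 1122 bases long, is spread over 9 exons.

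The beginnings of the coding parts show how alike the copies are. The first 90 coding bases of each gene follow, 5′ to 3′, taken from the mm10 genome at the annotated start codon, with a capital wherever a base is rarer than the commonest one at that position among the 7 (bases that tie for the commonest, which happened at 1 position, are in lower case).
Spopfm1: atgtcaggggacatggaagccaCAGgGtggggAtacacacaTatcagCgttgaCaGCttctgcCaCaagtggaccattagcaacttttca
Spopfm2: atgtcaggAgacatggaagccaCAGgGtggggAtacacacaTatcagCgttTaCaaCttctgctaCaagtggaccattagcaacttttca
Tdpoz1: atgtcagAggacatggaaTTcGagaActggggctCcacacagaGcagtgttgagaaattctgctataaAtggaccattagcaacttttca
Tdpoz2: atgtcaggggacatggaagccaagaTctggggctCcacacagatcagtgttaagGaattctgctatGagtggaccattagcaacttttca
Tdpoz3: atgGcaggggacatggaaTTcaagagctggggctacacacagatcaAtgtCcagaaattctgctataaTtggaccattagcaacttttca
Tdpoz4: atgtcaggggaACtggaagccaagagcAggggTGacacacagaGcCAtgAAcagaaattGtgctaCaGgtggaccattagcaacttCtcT
Tdpoz5: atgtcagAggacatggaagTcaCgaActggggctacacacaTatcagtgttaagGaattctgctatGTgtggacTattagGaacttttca
All 7 had a single base at 51 of the 90 positions. By this count Tdpoz2 had a rarer base at 4 positions and Tdpoz4 at 15. Over the whole coding part, identity between members ran from 72.4% to 91.8% over 21 pairs (median 81.2%), and identity with Spop from 66.5% to 70.1%. The closest pair among the 7 was Spopfm1 and Spopfm2 at 91.8%. For 4 members the nearest copy of all was a gene outside the 7. Tdpoz5 was identical to Tdpoz7 over the coding part (100%), Tdpoz1 matched Tdpoz9 at 98.4%, Spopfm1 matched Spopfm3 at 91.9% and Tdpoz4 matched Tdpoz8 at 81.0%.

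Because reads that fit several places were put at 1 of them at random, the split of reads between near-identical copies is uncertain, and the plot of shared windows shows how much of each transcript this touches. Spopfm1 had no window of 100 bases in common with another annotated gene (0.0%), so its counts are the least open to exchange with other copies. Tdpoz5 shared all of its windows (100%) with Tdpoz7, so within the transcript its reads cannot be told from those of Tdpoz7. Tdpoz3 shared 46.7% of its windows with the pseudogene Gm4982. The other members shared from 11.6% (Tdpoz4) to 24.9% (Spopfm2). With windows of 150 bases the shares were 0.0% for Spopfm1, 100% for Tdpoz5, 33.4% for Tdpoz3 and 6.5% to 18.0% for the rest. The alignment also allowed 3 mismatches, which these exact windows do not count.

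**Figure D1:**
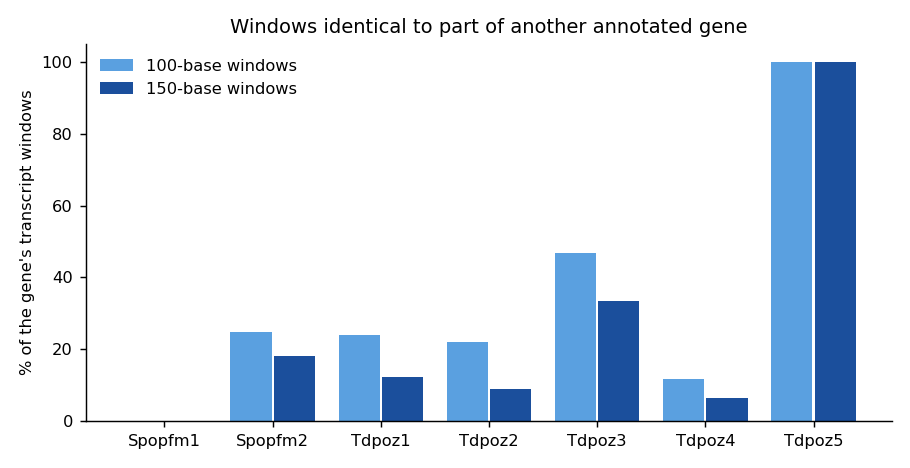
Share of each gene's transcript windows, in percent, that occur identically in another annotated gene (light bars 100 bases, dark bars 150 bases). Spopfm1 has 0.0%, Tdpoz5 has 100%, and Tdpoz3 is next with 46.7% at 100 bases.

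The stretches just before the transcripts are shown because the members' levels moved together. The RefSeq promoter table (GRCm38.p6) held windows for 4 members (Spopfm2, Tdpoz1, Tdpoz4 and Tdpoz5). Those of Spopfm2 and Tdpoz1 lie before an annotated transcript start and are printed, 5′ to 3′ along the gene, up to the base before the GENCODE start. Capitals mark a homeodomain core and a TATA-like run. The former, TAATCC along the gene, was searched on either strand as the letters known to be bound by OBOX and OTX-type homeodomain proteins. The latter, TATATAA, was noticed in these windows and not chosen beforehand.
Tdpoz1 (chr3:93676311-93676533, minus strand): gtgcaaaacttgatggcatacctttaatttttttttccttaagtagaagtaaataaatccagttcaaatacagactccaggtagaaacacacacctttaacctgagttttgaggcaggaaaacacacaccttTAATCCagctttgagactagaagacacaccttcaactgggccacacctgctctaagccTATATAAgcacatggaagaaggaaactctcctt
Spopfm2 (chr3:94178194-94178443, minus strand): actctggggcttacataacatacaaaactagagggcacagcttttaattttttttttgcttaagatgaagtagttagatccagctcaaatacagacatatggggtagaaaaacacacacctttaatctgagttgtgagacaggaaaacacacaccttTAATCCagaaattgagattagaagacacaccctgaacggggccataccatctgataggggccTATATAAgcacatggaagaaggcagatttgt
The TATA-like run begins 33 bases before the start of Tdpoz1 and 31 bases before that of Spopfm2. The homeodomain core begins 91 bases before the start of Tdpoz1 and 93 bases before that of Spopfm2. The full windows run from 250 bases before to 50 bases after the RefSeq start. Over the 250 bases before that start, the windows of both genes were 66.3% identical. Over 8 windows of 7 copies of the family, searched on both strands, the homeodomain core and the TATA-like run each occurred in 4 (Spopfm2, Tdpoz1, Tdpoz8 and Tdpoz9). These 4 windows were 66.3% to 82.9% identical to each other over the 250 bases before the start, so they are not independent occurrences. The ordinary TATA box, TATAAA, was found in 0 of the 8. The letters read by ZSCAN4 proteins, TGCACAC, were found in 0 of them as well. Among all 32851 promoter windows of this length, 7.06% held the homeodomain core, 3.24% the TATA-like run, 13.6% the ordinary TATA box and 4.4% the ZSCAN4 letters. These are matches of letters and no binding was measured in these files.

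Members were barely detected in EHMT2-dTAG cells with DMSO and were higher with dTAG at both times of the time course. At 24 h with DMSO the 7 means ran from 0 (Tdpoz2) to 1.32 (Tdpoz4) normalized reads and summed to 3.92, and with dTAG they summed to 37.4. Spopfm1 had the highest mean with dTAG, at 13.8 against 0.649 with DMSO. Tdpoz4 followed with 8.47 against 1.32. Tdpoz3 had 5.32 against 0.337, and Spopfm2 had 4.34 against 0.962. Tdpoz1 (2.62 against 0.337), Tdpoz2 (1.56, listed at 0 with DMSO) and Tdpoz5 (1.21 against 0.313) remained at a few reads in all libraries together. Of the 7, 6 were past 2-fold at 24 h, with Tdpoz5 at 0.75 on the log2 scale, and 6.53% of all 25754 genes were higher by that much. The members' median log2 difference was 1.44 (range 0.75 to 3.17), and that of all genes 0.01. At these low means the count depended on the pseudocount, and 3 of the 7 were past 2-fold with a pseudocount of 4.

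At 7 d the levels with dTAG were higher again, and those with DMSO were still near 0. The 7 means summed to 220 with dTAG and 4.38 with DMSO, and the sum with dTAG was 5.89-fold that with dTAG at 24 h within that experiment. Spopfm1 had a mean of 63.6 with dTAG and was listed at 0 with DMSO. Tdpoz4 reached 42.2 (DMSO 0.968), Spopfm2 38.7 (DMSO 0.638), Tdpoz3 27.7 (DMSO 1.14) and Tdpoz1 27.3 (DMSO 0.725). Tdpoz5 with 14.6 (DMSO 0.901) and Tdpoz2 with 5.87 (listed at 0 with DMSO) were the lowest of the 7. All 7 were past 2-fold, against 8.73% of all genes, with a median log2 difference of 4.03 (range 2.78 to 6.01) against 0.02 for all genes. Nothing is read from this count, since the comparison took part in the choice of the genes. The other 5 annotated copies, Spopfm3 and Tdpoz6 to Tdpoz9, were also past 2-fold at 7 d in 5 of 5 cases (median log2 difference 4.10).

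Markers of 2-cell-like cells moved with the members in bulk cultures. Of 16 such markers, among them the Zscan4 genes, Zfp352 and Duxf3, 15 were higher by at least 2-fold at 24 h (median log2 difference 3.33) and 16 at 7 d (4.33). The internal part of the MERVL retrovirus had a mean of 5296 normalized reads with DMSO and 28792 with dTAG at 24 h, and of 5074 and 80321 at 7 d. In a bulk culture, more cells of a type and more RNA per cell cannot be told apart, and the part of 2-cell-like cells in the members' levels at these times was not tested. Of 10 pluripotency markers 0 were past 2-fold at either time, and of 10 feeder fibroblast markers 0 were higher and 1 lower at 24 h, and 1 was higher at 7 d.

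**Figure D2:**
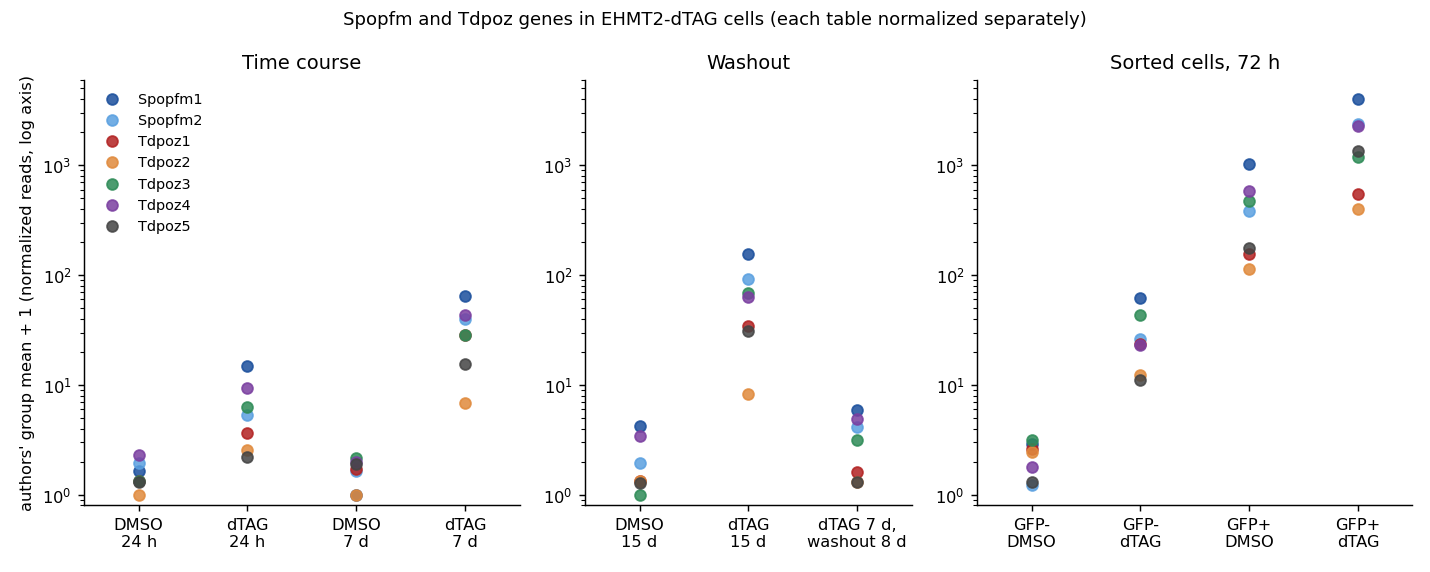
The authors' group mean plus 1, in normalized reads on a log axis, of each of the 7 genes (colours) in the groups of the time course, the washout experiment and the sorted cells, each panel from its own separately normalized table and each point a mean of 3 libraries without a spread. All 7 are near the bottom with DMSO, after washout and in GFP-negative cells with DMSO, and between 113 and 3989 in GFP-positive cells.

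After 15 d of dTAG the members summed to 446 normalized reads, and after 7 d of dTAG and 8 d of washout to 15.4, against 7.51 after 15 d of DMSO. Spopfm1 had 155 with dTAG, 4.87 after washout and 3.19 with DMSO. Spopfm2 had 90.2, 3.15 and 0.934 in the same order. After washout both were thus within a few normalized reads of their level in DMSO, though Spopfm2 was still past 2-fold above it. Tdpoz3 had 67.3 with dTAG and 2.15 after washout, and was listed at 0 with DMSO. Tdpoz4 had 62.7, 3.94 and 2.45, Tdpoz1 33.2, 0.619 and 0.326, Tdpoz5 30.0, 0.310 and 0.282, and Tdpoz2 7.34, 0.310 and 0.326. The last 3 were at about a single read in total both with DMSO and after washout.

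With 15 d of dTAG all 7 were past 2-fold over DMSO (median log2 difference 4.69, range 2.65 to 6.09), where 9.23% of all genes were, and this contrast too was known when the genes were chosen. After washout all 7 were lower than with 15 d of dTAG by at least 2-fold (median -4.44, range -4.74 to -2.67), where 10.6% of all genes were, and this contrast shares its dTAG group with the one that informed the choice. Recovery against DMSO left 2 of the 7 past 2-fold, Tdpoz3 at 1.66 and Spopfm2 at 1.10 on the log2 scale, where 3.53% of all genes were. Those 2 differences rest on means of 0 to 3.15 normalized reads, and with a pseudocount of 4 the count was 0 of 7. The summed level after washout was 3.44% of that with 15 d of dTAG and 2.04-fold that with DMSO. Of the 16 markers of 2-cell-like cells, 15 were higher by at least 2-fold with 15 d of dTAG (median log2 difference 4.55), and 0 were past 2-fold between Recovery and DMSO (median log2 difference 0.54), and 7 of the 10 feeder markers were lower in Recovery by at least 2-fold. The MERVL internal part had a mean of 5617 with DMSO, 147295 with dTAG and 11016 after washout. The part of these cell types in the members' values was not tested.

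The members' normalized levels were far higher in GFP-positive than in GFP-negative libraries, each fraction being scaled to its own reads and not weighted by its share of the culture. With DMSO the 7 means summed to 2905 normalized reads in GFP-positive cells and 8.40 in GFP-negative cells, and with dTAG to 12134 and 194. Spopfm1 had 1026 and 1.87 with DMSO, and 3989 and 60.3 with dTAG. Tdpoz4 had 578 and 0.775 with DMSO, and 2269 and 22.0 with dTAG. Both were thus near absent from the negative cells without dTAG and highest in the positive cells with it. Tdpoz3 had 476 and 2.18 with DMSO and 1183 and 42.2 with dTAG. Spopfm2 had 382 and 0.233 with DMSO and 2391 and 25.4 with dTAG. Tdpoz5, whose reads are shared with Tdpoz7, had 174 and 0.309 with DMSO and 1355 and 9.97 with dTAG. The lowest positive levels were those of Tdpoz1 (154 with DMSO, 546 with dTAG) and Tdpoz2 (113 and 401), which in GFP-negative cells had 1.59 and 1.44 with DMSO and 22.5 and 11.3 with dTAG.

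All 7 were past 2-fold higher in GFP-positive than in GFP-negative cells, with a median log2 difference of 7.23 with DMSO (range 5.55 to 8.48), where 22.9% of all genes were past it, and of 6.02 with dTAG (4.54 to 6.95), where 19.5% were. The reporter used for the sort is itself driven by MERVL, and the genes were chosen with these values known, so the counts are a description. All 16 markers of 2-cell-like cells were past 2-fold as well, with medians of 7.32 and 4.61. Of the 10 pluripotency markers 4 were lower by at least 2-fold in GFP-positive cells under either treatment. Of the 9 feeder markers at a mean of at least 1, 3 were higher by that much in GFP-positive cells with DMSO (median log2 difference 0.85) and 5 with dTAG (1.16), and their part in the members' difference was not tested.

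Within the sorted fractions, dTAG went with higher levels in both. In GFP-negative cells the member sum was 23.1-fold higher with dTAG than with DMSO, and all 7 were past 2-fold (median log2 difference 3.70, range 2.33 to 4.42) where 10.9% of all genes were. In GFP-positive cells the sum was 4.18-fold higher, and all 7 were past 2-fold (median 1.96, range 1.31 to 2.95) where 8.96% of all genes were. The values in GFP-positive cells were known when the genes were chosen, so that count is a description. The comparison in GFP-negative cells shares its groups with the comparisons of the 2 fractions, which were known as well. Nothing is therefore read from its count either. The single members in GFP-positive cells differed in how much higher they were. Tdpoz5 had the largest ratio of dTAG to DMSO means, 7.77, and Spopfm2 had 6.25. Tdpoz4 (3.92), Spopfm1 (3.89), Tdpoz1 (3.55) and Tdpoz2 (3.54) were close to each other, and Tdpoz3 had the smallest, 2.48. Without values per library, whether these ratios differ beyond replicate error could not be tested, and for Tdpoz5 the ratio is that of reads shared with Tdpoz7.

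Over the 16 markers of 2-cell-like cells the ratio of dTAG to DMSO means in GFP-positive cells ran from 0.528 (Duxf3) to 5.98 with a median of 2.08, against 2.48 to 7.77 with a median of 3.89 for the members. Zscan4c had 1.18 and Zfp352 3.65, and the MERVL internal part had 1.98. Since the members were chosen with the values in GFP-positive cells known, nothing is read from their higher median. The other 5 copies of the family had a median log2 difference of 2.19 in this comparison, beside 1.96 for the members. Feeder markers moved in the same comparison, with 8 of the 9 at a mean of at least 1 higher with dTAG in GFP-positive cells and 5 of 9 in GFP-negative cells. Their part in the members' difference was not tested.

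As a percent of the level in GFP-positive cells, the members' level in GFP-negative cells was 0.0609% (Spopfm2) to 1.27% (Tdpoz2) with DMSO, with a median of 0.182%, and 0.736% (Tdpoz5) to 4.12% (Tdpoz1) with dTAG, with a median of 1.51%. The 16 markers had medians of 0.619% with DMSO and 4.08% with dTAG, and the MERVL internal part had 0.419% and 2.42%. In both groups of genes the percent was higher with dTAG than with DMSO, as the plot of these percents shows. Whether the members' reads in GFP-negative cells came from a few cells in the 2-cell-like state was not tested.

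**Figure D3:**
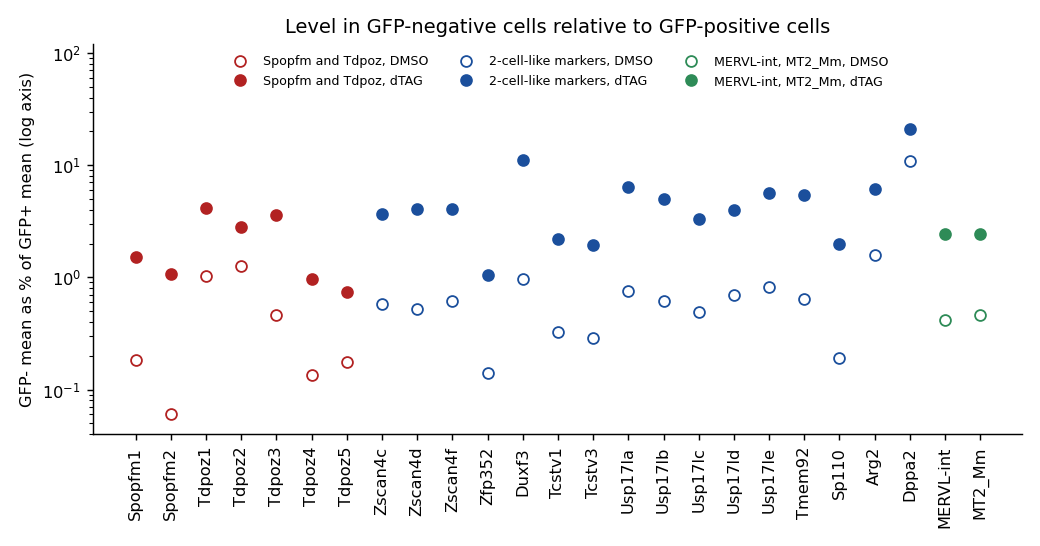
Mean in GFP-negative cells as a percent of the mean in GFP-positive cells, on a log axis, for the 7 genes (red), 16 markers of 2-cell-like cells (blue) and 2 MERVL annotations (green), with open points for DMSO and filled points for dTAG. Members run from 0.0609% to 1.27% with DMSO and from 0.736% to 4.12% with dTAG.

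The Dppa4 experiment asked whether these genes answer to inhibition of EHMT1 and EHMT2 without Dppa4, a chromatin protein that activates genes of the 2-cell state. The rule for the genes does not use its values, although earlier results of it were known. Members had reads in WT libraries and none in KO libraries. Spopfm1 had 0, 0 and 18 reads in WT libraries 1, 2 and 3 with DMSO and 14, 14 and 63 with UNC0638. Its highest DMSO library lay above its lowest UNC0638 libraries, so the groups overlapped. Tdpoz3 had 4, 0 and 13 reads with DMSO and 11, 18 and 64 with UNC0638, with the same kind of overlap. Tdpoz4 had 0, 0 and 12 reads, then 9, 6 and 52. Library 3 was the highest under both treatments for each of these 3 genes.

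Spopfm2 had 0, 7 and 9 reads with DMSO and 7, 4 and 32 with UNC0638, and was thus higher with the inhibitor in 2 of the 3 same-numbered pairs. Tdpoz5 had 0, 0 and 2 reads, then 0, 8 and 11. Tdpoz1 had 0, 0 and 1, then 0, 3 and 2, too few to order. Tdpoz2 differed from the rest, with 8, 3 and 2 reads with DMSO and 0, 0 and 0 with UNC0638, so that its inhibitor group was the lower. In all 6 KO libraries each of the 7 genes had 0 reads, and so did the other 5 copies. A count of 0 in a library allows up to 0.236 to 0.339 reads per 1000000 in the KO libraries. Summed over the 7 genes, the WT libraries held 12, 10 and 57 reads with DMSO (1.35, 1.19 and 4.50 per 1000000) and 41, 53 and 224 with UNC0638 (3.81, 5.11 and 17.7 per 1000000).

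**Figure D4:**
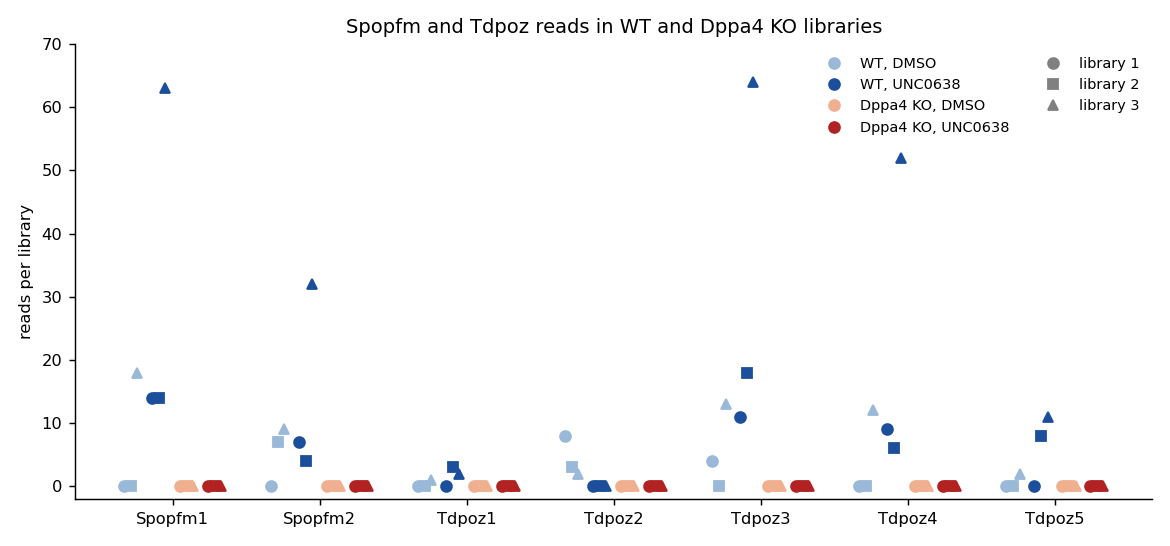
Reads per library of each of the 7 genes in WT (blue) and Dppa4 KO (red) libraries with DMSO (pale) or UNC0638 (dark), with the marker shape giving the library number. KO libraries sit at 0 for every gene, and WT library 3 with UNC0638 is the highest for Spopfm1 (63), Tdpoz3 (64), Tdpoz4 (52), Spopfm2 (32) and Tdpoz5 (11).

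Of the 7, Spopfm1 and Tdpoz3 had enough reads to pass the expression filter and be tested with limma on log2 of the normalized value plus 1. In WT cells, UNC0638 against DMSO gave Spopfm1 a log2 difference of 3.06 (SE 1.20, adjusted p = 0.563) and Tdpoz3 one of 2.38 (SE 1.10, adjusted p = 0.563), so 0 of 2 members were called. Both had an unadjusted p under 0.05 by limma, and edgeR and DESeq2 also called 0 of 2. Across all genes tested, 0 of 17258 genes (0%) were called in this contrast by limma, 1504 had an unadjusted p under 0.05, edgeR called 0 and DESeq2 called 14. Same-numbered WT libraries deviated together, and with the number as a replicate block in a fit of the 6 WT libraries, an alternative added after the data were seen, Spopfm1 was called at the same difference (SE 0.80, adjusted p = 0.0419) and Tdpoz3 was not (SE 0.77, adjusted p = 0.0785), among 187 calls in 16396 genes. Without the block the fit of those 6 libraries called 0. Summed over the 7 genes, the ratio of UNC0638 to DMSO was 2.58, 4.02 and 3.59 in the 3 same-numbered pairs. Tdpoz2, which had to be tested without the filter, had a difference of -2.35 with an adjusted p of 0.150.

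Against WT cells with UNC0638, KO cells with UNC0638 were lower for both testable members. Spopfm1 fell by 4.41 on the log2 scale (SE 1.20, adjusted p = 0.0473) and Tdpoz3 fell by 4.43 (SE 1.10, adjusted p = 0.0308), so 2 of 2 were called, where 3.29% of 17258 genes were called in either direction, 2.31% lower and 0.973% higher. All 3 WT libraries had more reads than all 3 KO libraries for both genes. The share of all genes separated in this way was not counted, so nothing is read from this separation. The observed WT means were set against a floor of detection of 3 reads over the 3 libraries of the KO group. They were at least 26.4-fold higher for Spopfm1, 27.1-fold for Tdpoz3, 19.2-fold for Tdpoz4, 12.4-fold for Spopfm2, 5.67-fold for Tdpoz5 and 1.53-fold for Tdpoz1. The spread of the WT libraries is not counted in these folds, and it was wide (Spopfm1 mean 25.2, SD 21.7). WT library 3 carried much of these folds, and without it they were 13.3 for Spopfm1, 13.9 for Tdpoz3, 7.08 for Tdpoz4, 5.18 for Spopfm2, 3.91 for Tdpoz5 and 1.47 for Tdpoz1. The filter was passed through the WT libraries alone, so a count of the members that passed it supports nothing beyond these values. The calls also depended on single libraries. Leaving out WT UNC0638 library 2, WT UNC0638 library 3 or KO UNC0638 library 3 left 0 of 2 called, and edgeR (Spopfm1 adjusted p = 0.0540) and DESeq2 (Spopfm1 adjusted p = 0.243) each called Tdpoz3 and not Spopfm1.

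Against WT cells with DMSO, KO cells with DMSO gave -1.35 for Spopfm1 (SE 1.20, adjusted p = 0.533) and -2.04 for Tdpoz3 (SE 1.10, adjusted p = 0.271), and 0 of 2 members were called, where 4.43% of genes were (3.10% lower and 1.33% higher). Neither had an unadjusted p under 0.05 by limma, edgeR called 0 of 2, and DESeq2 called Tdpoz3 (adjusted p = 0.0466). The value of Spopfm1 rested on WT library 3, and without that library it was 0.00. At the floor of 3 reads over the KO group, the observed WT mean with DMSO was at least 5.22-fold higher for Spopfm2, 5.07-fold for Tdpoz3, 4.98-fold for Spopfm1, 4.67-fold for Tdpoz2 and 3.32-fold for Tdpoz4. The spread of the WT libraries is again not counted in these folds. All 18 reads of Spopfm1 and all 12 of Tdpoz4 were in WT library 3, so without it no bound exists for either, and the others became 4.09 for Spopfm2, 2.21 for Tdpoz3 and 6.17 for Tdpoz2. Tdpoz1 and Tdpoz5 were at or under that floor in both groups, and no fold is given for them.

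In KO cells, UNC0638 against DMSO compared 0 reads with 0 reads for every member, with 0 of 2 called by limma, edgeR and DESeq2 and none at an unadjusted p under 0.05, where 0.464% of genes were called (0.411% higher and 0.0521% lower). The effect of UNC0638 in KO minus that in WT was -3.06 for Spopfm1 (SE 1.70, adjusted p = 0.775) and -2.38 for Tdpoz3 (SE 1.55, adjusted p = 0.779). Limma, edgeR and DESeq2 called 0 of 2 members and 0 of 17258 genes (0%) in this contrast, and by limma 1076 genes but no member had an unadjusted p under 0.05. With every KO library at 0 under both treatments, this contrast is the WT difference with its sign turned and a larger error, so it does not tell whether the response differed between KO and WT.

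Markers of 2-cell-like cells moved with the members here too. Summed over the 16 markers, the normalized values were 881, 1325 and 2659 in WT libraries with DMSO and 1664, 2216 and 8468 with UNC0638, with library 3 again the highest in each group. In KO libraries the sums were 726 to 1234, carried by markers such as Dppa2 and Arg2, and 13 of the 16 markers with DMSO and 12 with UNC0638 were at 0 in all 3 libraries. Without Dppa2 and Arg2 the sums were 109, 455 and 1839 in WT with DMSO and 1013, 1463 and 7784 with UNC0638. In KO libraries they were then 0 to 5.80. The MERVL internal part had normalized values of 2199, 4355 and 12607 in WT with DMSO, 14593, 12274 and 53609 in WT with UNC0638, and 444 to 1407 in the KO libraries. Of 13 markers tested, 6 were called lower in KO against WT with DMSO and 11 with UNC0638, where 3.10% and 2.31% of all genes were. Markers at 0 in all KO libraries passed the expression filter through the WT libraries alone, so nothing is read from these counts. The part of 2-cell-like cells in the members' difference was not tested.

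Genes of the ubiquitin ligase that SPOP serves were past 2-fold in numbers near those over all genes in bulk cultures with dTAG against DMSO. A list of 30 genes of the CUL3 ligase holds Spop and Spopl, which are the ordinary MATH-BTB adaptors, Cul3, the scaffold, Rbx1, its RING partner, the enzymes that attach NEDD8 to cullins, and further BTB adaptors. With dTAG 3 of the 30 were past 2-fold higher at 24 h, 1 at 7 d and 2 at 15 d, beside 6.53%, 8.73% and 9.23% of all genes, and 0 were lower. Between GFP-positive and GFP-negative cells 1 was higher and 1 lower with DMSO, and 2 were higher and 1 lower with dTAG. Over all genes 22.9% were higher with DMSO and 19.5% with dTAG, and the share that was lower was not counted. The gene lower with DMSO was Spop. The list's median log2 differences over all mean comparisons lay between -0.20 and 0.16. Spop had a mean of 529 with DMSO and 586 with dTAG at 7 d, and of 361 in GFP-negative and 108 in GFP-positive cells with DMSO. Cul3 had 1014 and 1248 at 7 d, and 752 and 836 in the negative and positive cells. Rbx1 had 562 and 534 at 7 d, and Spopl 240 and 248.

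In the Dppa4 experiment all 30 genes of the list were tested. Spop, Spopl, Cul3 and Rbx1 were called in 0 of the 5 contrasts, with log2 differences between -0.39 and 0.17. Klhl13, a BTB adaptor of CUL3, fell by 4.12 in KO against WT with DMSO (adjusted p = 2.36e-07) and by 3.48 with UNC0638 (adjusted p = 3.13e-06), and rose by 1.32 with UNC0638 in KO cells (adjusted p = 0.0398). Rhobtb3, another BTB protein, fell by 2.45 in KO against WT with UNC0638 (adjusted p = 0.0127).

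Other transcripts of the same stretch of chromosome 3 were also higher in GFP-positive cells. Between the start of Tdpoz2 and the end of Spopfm1 the annotation holds 32 further genes, of which 4 are copies of the family (Spopfm3, Tdpoz6, Tdpoz7 and Tdpoz9) and 26 are pseudogenes. With DMSO, 16 of the 32 had a mean of at least 10 normalized reads in GFP-positive cells and 0 in GFP-negative cells. Of the 20 with a mean of at least 1 in either, 20 were higher in GFP-positive cells by at least 2-fold, where 22.9% of all genes were. Most of the 20 reached that mean in GFP-positive cells alone, so this count was largely fixed by the limit and nothing is read from it. Their median log2 difference was 6.37, beside 7.23 for the members. The 5 highest in GFP-positive cells with DMSO were the pseudogenes Gm9121 (971) and Gm9113 (707), the copy Spopfm3 (674), and the pseudogenes Gm9124 (559) and Gm5542 (497), a range that overlaps that of the members (113 to 1026). Several of them share windows with members, as Gm5542 and Gm9121 do with Spopfm2.

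Genes outside the stretch are given for comparison, and those named here were picked after their values were seen. The summary takes all 14 in the plotted range with a mean of at least 1 in either fraction with DMSO. Their log2 difference between GFP-positive and GFP-negative cells with DMSO ran from 0.12 to 7.68, with a median of 1.54. Of these, 10 were higher by at least 2-fold, where 22.9% of all genes were. Most of the 10 reached a mean of at least 1 in GFP-positive cells alone, so this count too was largely fixed by the limit and nothing is read from it. Gm5541, a pseudogene 22.9 kb before the start of Tdpoz2 that shares windows with Tdpoz4, had a mean of 395 in GFP-positive cells with DMSO and a log2 difference of 7.68. S100a10 and S100a11, on the same side, had log2 differences of 0.51 and 0.78, and Tchh, farther out on that side and outside the plot, had 3.22. On the other side Them4 had 2.98, Gm43743 2.55, C2cd4d 2.10, Tdrkh 1.81 and Mrpl9 0.12. The map of the stretch shows these values by position.

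**Figure D5:**
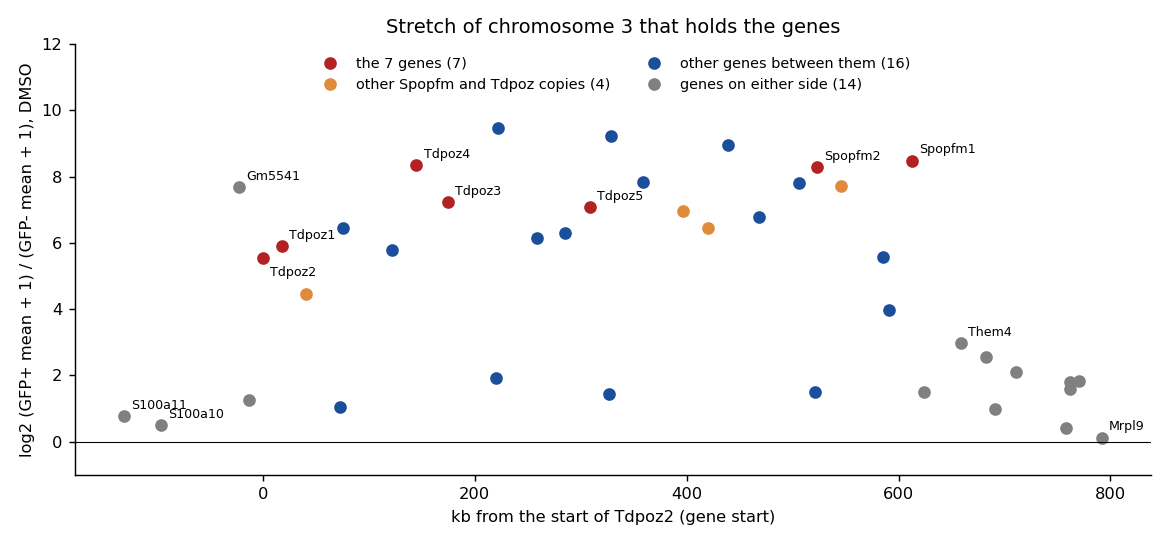
Log2 difference between the means of GFP-positive and GFP-negative cells with DMSO (each plus 1) against distance in kb from the start of Tdpoz2, for the 7 genes (red), 4 other copies (orange), 16 other genes between them (blue) and 14 genes on either side within the plotted range (grey) that had a mean of at least 1. The 7 genes lie between 5.55 and 8.48, and Mrpl9 at the right edge at 0.12.

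Divided by exon length, Spopfm1 had the highest level of the 7 in every dTAG group of every table, in Recovery and in both GFP-positive groups. Its level was 51.3 normalized reads per kb with dTAG at 7 d, 125 at 15 d, 827 in GFP-positive cells with DMSO and 3215 with dTAG. Tdpoz4 followed at 7 d (37.9 per kb) and in GFP-positive cells (520 with DMSO and 2039 with dTAG), and Tdpoz3 at 15 d (61.3 against 56.3 for Tdpoz4). Tdpoz1 or Tdpoz2 was the lowest in each of these groups, with Tdpoz1 at 65.5 and 232 per kb in the GFP-positive groups and Tdpoz2 at 98.9 and 350. Whether neighbours in this order differ cannot be said, since no spread over libraries was at hand. The order also depends on the annotated exon length, 2353 bases for Tdpoz1 and 1145 for Tdpoz2. Before that division Tdpoz1 was above Tdpoz2 in GFP-positive cells, at 154 against 113 with DMSO and 546 against 401 with dTAG. Of the summed reads of the 7, Spopfm1 held 28.9% to 37.0% in the dTAG groups, which is also the gene whose reads are the least shared.

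The pattern of the member sum over the 15 group means was compared with that of 22286 genes that reached a mean of 10 in some group. The 5 most like it, by Pearson's r of log2 values centred within each experiment, were Gm6189 on chromosome 1 (r = 0.996), Gm2022 (0.996) and Gm4027 (0.995) on chromosome 12, Gm48754 on chromosome 13 (0.993) and Gm5698 on chromosome 1 (0.993). None of these lies in the stretch of chromosome 3. By Spearman's rho the 5 closest genes shared 1 name with this list. The members' own r with their sum ran from 0.868 (Tdpoz2) to 0.986 (Tdpoz3). The 15 points share libraries and size factors within each table, so these values describe the groups and carry no test.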

How the data were processed

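Per the labels, RNA was measured by poly(A) or low-input RNA-seq in 45 mESC libraries. The authors trimmed reads (Trim Galore 0.6.7), aligned them to mm10 with STAR 2.7.10 without introns, placed reads with several matches at random, counted GENCODE genes and repeats with TEcounts at default parameters, and divided counts by DESeq2 1.34.0 size factors. The strand setting is thus the default of the tool, which the sources used here do not spell out. The deposited signal columns are these normalized counts, as group means in the 3 dTAG tables and per library in the Dppa4 experiment. Columns of the authors' own comparisons (fold changes and p-values) were not used.

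Whole reads were recovered for 100% of the Dppa4 values (tolerance 0.001). Genes past edgeR 4.0.16's filterByExpr (17258) were fitted with limma 3.58.1 with a trend on log2(value + 1) over 12 libraries and 4 groups, Benjamini-Hochberg adjusted over all genes, and called at adjusted p under 0.05 and an absolute log2 difference of at least 1. Where planned tests met tables of means, levels and log2 of (mean + 1) ratios were given instead. Alternatives were edgeR, DESeq2 1.42.0, TMM scaling, no filter, other pseudocounts, a block for the replicate number and each library left out, and the fit was tested on simulated data. P-values measure the spread between these libraries. Deviations of same-numbered libraries from their group means correlated at 0.246, 0.103 and 0.431 in WT and at 0.154, -0.0923 and 0.0129 in KO, so the numbers were taken to pair the WT libraries. The text names the 7 members, list genes called in a test, 5 genes of the stretch and 5 of like pattern. Members and lists were chosen with earlier results of these data known. Counting error alone underlies the floors given for counts of 0.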

Additional observations from a re-analysis of the deposited data

How the results depend on the processing

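Over the 303 alternative values computed, 262 were unchanged, 15 no longer passed the threshold, 2 newly passed it, 24 moved and 0 reversed. For a log2 difference unchanged means the same direction and side of the threshold, and for a count or percent a value within 1.5-fold. The tally holds member counts for UNC0638 in KO cells, which compare 0 reads with 0 reads. It also holds the contrast of KO and WT effects, which largely repeats the WT difference, so it overstates how stable the results are. For KO against WT with UNC0638, the 2 members called became 1 with edgeR, 1 with DESeq2, 0 with a pseudocount of 0.25, 0 without both WT libraries numbered 3, and 0 to 2 when a single library was left out. With no filter on low counts 3 of 7 were called there, with Tdpoz4 added (adjusted p = 0.0349). For KO against WT with DMSO, the count of 0 became 1 with DESeq2 (Tdpoz3) and 1 with no filter (Tdpoz2, adjusted p = 0.0163). The replicate block over 12 libraries left the member counts at 0, 0, 0, 2 and 0 in the 5 contrasts. It changed no call of a member, but it put same-numbered WT and KO libraries in 1 block. It thus does not show whether pairing within a genotype changes the calls. A block over the 6 WT libraries gave 1 instead of 0 for UNC0638 against DMSO in WT. In the tables of means, where no replicate block and no omission of a library was possible, a pseudocount of 4 left 3 of 7 members past 2-fold at 24 h (6 with a pseudocount of 1) and 0 in Recovery against DMSO (2 with a pseudocount of 1), and 25 of the 27 member counts kept their value within 1.5-fold. Apart from the fewer reads or samples that these alternatives use, the cause was not tested.

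Counts of calls over all genes that differed by more than 1.5-fold were 0 by limma and 14 by DESeq2 for UNC0638 against DMSO in WT (187 with the WT replicate block), 80 by limma, 37 by edgeR, 285 by DESeq2, 12 without the filter and 172 with the block for the same contrast in KO, and 567 by limma and 868 by DESeq2 for KO against WT with UNC0638. In the Dppa4 experiment 5 of the 7 members did not pass the filter on low counts. Without WT UNC0638 library 3 the adjusted p for KO against WT with UNC0638 was 0.190 for Spopfm1 and 0.151 for Tdpoz3.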
